A study of Mus musculus with 9 samples.

Results

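The chemokine ligand family was followed through RNA sequencing of mouse seminal vesicle, a secretory gland of the male reproductive tract, at 3, 13 and 21 months of age. A gene counted as a member when it was protein-coding in the GENCODE M21 annotation and its symbol was Ccl or Cxcl with a number, Cx3cl1 or Xcl1. This gave 37 of the 53379 genes in the deposited count table, 23 of them Ccl genes and 12 Cxcl genes. Each age had 3 libraries of total RNA, 9 in all. The labels give the tissue and the age of each library, and do not give the strain, the genotype, any treatment or whether the replicates are separate animals, so that p-values measure the spread between these libraries.

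Total counts per library ran from 16536160 to 24791943. The secretory gland was present in all 9 libraries, with 1182653 to 4603525 counts of Svs5, a major secreted protein of the seminal vesicle. Libraries of 21-month replicates 1 and 2 stood apart. Replicate 1 held 300932 counts of Tgm4 and 108258 of Pbsn, genes of the prostate, against at most 13 counts of either in the others. The summed level of 8 adipocyte markers was 266.4 CPM in replicate 1 and 2300.0 in replicate 2, against 1.45 in replicate 3 and 1.21 to 26.7 at 3 and 13 months. Here CPM is the count per 1e+06 counts of the library after scaling by TMM, a method that corrects for a few very abundant genes. The TMM factors were 1.637, 1.338 and 0.979 in 21-month replicates 1, 2 and 3, against 0.815 to 0.988 in the other 6 libraries. Fold changes of ligands and of called receptor and pathway genes are therefore also given with replicate 3 as the only 21-month library. Calls of cell type markers are given with all 3 libraries of 21 months only.

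Chemokines are small secreted proteins that steer migrating cells. They are sorted by the spacing of their first conserved cysteines into CC, CXC, CX3C and C forms, and they act through G protein-coupled receptors on leukocytes, while atypical receptors take them up without signalling through G proteins. Inflammatory chemokines are switched on by cytokines and infection and draw in monocytes, neutrophils, eosinophils or activated T cells. Homeostatic chemokines such as Cxcl12, Cxcl13 and Ccl19 place lymphocytes and stem cells within tissues and lymphoid organs.

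Promoter sequences are shown for the members called as changed with age, Ccl8 and Cxcl13, and for the member with the most counts of each structural form, Cxcl12 (CXC), Ccl25 (CC), Cx3cl1 (CX3C) and Xcl1 (C). Each runs from 250 bases before to 50 bases after the RefSeq start site on GRCm38.p6, written 5′ to 3′ on the strand of the gene. Capitals mark matches to the motifs described after them.
Ccl8 (chr11:82114935-82115234, plus strand): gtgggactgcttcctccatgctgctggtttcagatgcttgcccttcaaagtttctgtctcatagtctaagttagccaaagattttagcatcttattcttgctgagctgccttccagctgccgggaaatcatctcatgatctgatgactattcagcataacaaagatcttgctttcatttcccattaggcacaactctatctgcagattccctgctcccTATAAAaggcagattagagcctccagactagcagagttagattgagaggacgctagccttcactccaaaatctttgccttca
Cxcl13 (chr5:95956689-95956988, plus strand): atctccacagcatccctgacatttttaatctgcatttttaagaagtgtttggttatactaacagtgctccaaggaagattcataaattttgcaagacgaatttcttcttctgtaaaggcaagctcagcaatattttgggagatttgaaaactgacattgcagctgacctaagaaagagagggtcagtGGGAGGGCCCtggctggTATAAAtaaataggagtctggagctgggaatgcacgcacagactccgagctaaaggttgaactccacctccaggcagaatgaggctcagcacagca
Cxcl12 (chr6:117168285-117168584, plus strand): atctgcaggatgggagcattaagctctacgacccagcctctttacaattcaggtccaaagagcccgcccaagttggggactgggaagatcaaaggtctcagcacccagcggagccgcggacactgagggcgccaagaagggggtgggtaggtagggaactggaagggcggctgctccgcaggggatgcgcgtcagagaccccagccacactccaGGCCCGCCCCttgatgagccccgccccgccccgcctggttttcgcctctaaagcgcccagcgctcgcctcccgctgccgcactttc
Ccl25 (chr8:4324960-4325259, plus strand): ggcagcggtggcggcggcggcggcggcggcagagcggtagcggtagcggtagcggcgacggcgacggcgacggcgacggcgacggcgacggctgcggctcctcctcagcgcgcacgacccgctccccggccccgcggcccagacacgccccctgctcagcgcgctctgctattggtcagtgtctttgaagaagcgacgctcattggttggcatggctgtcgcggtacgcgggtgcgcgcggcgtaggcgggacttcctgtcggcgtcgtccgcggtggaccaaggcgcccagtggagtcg
Cx3cl1 (chr8:94771930-94772229, plus strand): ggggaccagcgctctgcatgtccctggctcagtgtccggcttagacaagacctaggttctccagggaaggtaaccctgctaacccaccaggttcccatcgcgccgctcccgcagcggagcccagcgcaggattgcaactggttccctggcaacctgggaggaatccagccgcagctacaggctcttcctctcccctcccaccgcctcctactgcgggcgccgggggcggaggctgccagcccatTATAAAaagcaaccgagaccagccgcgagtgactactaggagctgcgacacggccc
Xcl1 (chr1:164935473-164935772, minus strand): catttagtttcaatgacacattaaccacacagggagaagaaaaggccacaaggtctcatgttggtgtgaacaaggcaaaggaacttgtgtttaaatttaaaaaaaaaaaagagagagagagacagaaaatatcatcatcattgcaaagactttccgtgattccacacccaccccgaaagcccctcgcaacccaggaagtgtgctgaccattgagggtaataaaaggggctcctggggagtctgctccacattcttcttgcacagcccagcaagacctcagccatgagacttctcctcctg

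Of the 37 members 27 were matched by symbol to a RefSeq promoter. The window so matched to Ccl21b, at chromosome 4, 42172870 to 42173169, does not lie at the counted gene, which starts at 42255767. It is included in the shares of member promoters below. The letters searched were TATAAA on the strand of the gene and 4 patterns on both strands. These were GGG, 5 bases of any kind and CC (NF-kB); GAAA, 2 bases of any kind and GAAA (ISRE); TTCNNNGAA (GAS); and TGANTCA (AP-1). TATAAA was found in the promoters of Ccl8, Cxcl13 and Cx3cl1 and was not found in those of Cxcl12, Ccl25 and Xcl1. It lay 32 bases before the start in Ccl8, 46 in Cxcl13 and 6 in Cx3cl1. It was in 8 of the 27 member promoters (29.6%) and in 8.32% of all 32851 promoters of this length. The loose NF-kB letters matched Cxcl13 and Cxcl12 and were in 51.9% of member promoters and 50.8% of all. Shares in members and in all promoters were 11.1% and 3.44% for ISRE, 7.41% and 8.3% for GAS and 18.5% and 7.81% for AP-1, and none of these was in the 6 windows printed. The Ccl8, Cxcl13 and Xcl1 windows held 2, 3 and 3 CpG dinucleotides and those of Cxcl12, Ccl25 and Cx3cl1 held 20, 52 and 19, where the median of all promoters was 7. A match of letters is a description of these windows only.

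A few ligands made up most of the family's reads. Per kilobase of exon, the highest mean level over the 9 libraries was that of Cxcl16, a membrane-anchored ligand of CXCR6, at 8.70 CPM per kilobase. Cxcl14, a chemokine of epithelia, followed at 4.90, Cxcl12, the ligand of CXCR4, at 3.33, Ccl8 at 3.17, Ccl6 at 2.79 and Cx3cl1, the ligand of CX3CR1, at 2.28. The order differed by age. At 3 months Ccl8 stood at 0.414 ± 0.239 CPM per kilobase (SD, n = 3) and Cxcl12 at 3.30 ± 0.281, whereas at 21 months Ccl8 stood at 6.43 ± 2.40 and Cxcl12 at 3.47 ± 0.531. Of the 37 members 21 had a count in every library, 4 (Ccl19, Ccl20, Ccl21b and Cxcl3) had none in any, and 8 had 1 to 9 counts in all. A count of 0 allows up to 3 counts, or 0.121 to 0.1814 CPM on the library total, in 1 library. The summed count of the 37 genes was 1347 to 1616 at 3 months, 1491 to 1993 at 13 months, then 2665, 3953 and 2591 in 21-month replicates 1, 2 and 3. On TMM-scaled CPM the sum was 93.06 to 101.6 at 3 months and 85.22 to 104.0 at 13 months. In 21-month replicates 1, 2 and 3 it was 98.97, 142.4 and 117.6, so that replicate 1 lay within the range of 3 months. The size of the rise in summed counts thus rests in part on the scaling.

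**Figure D1:**
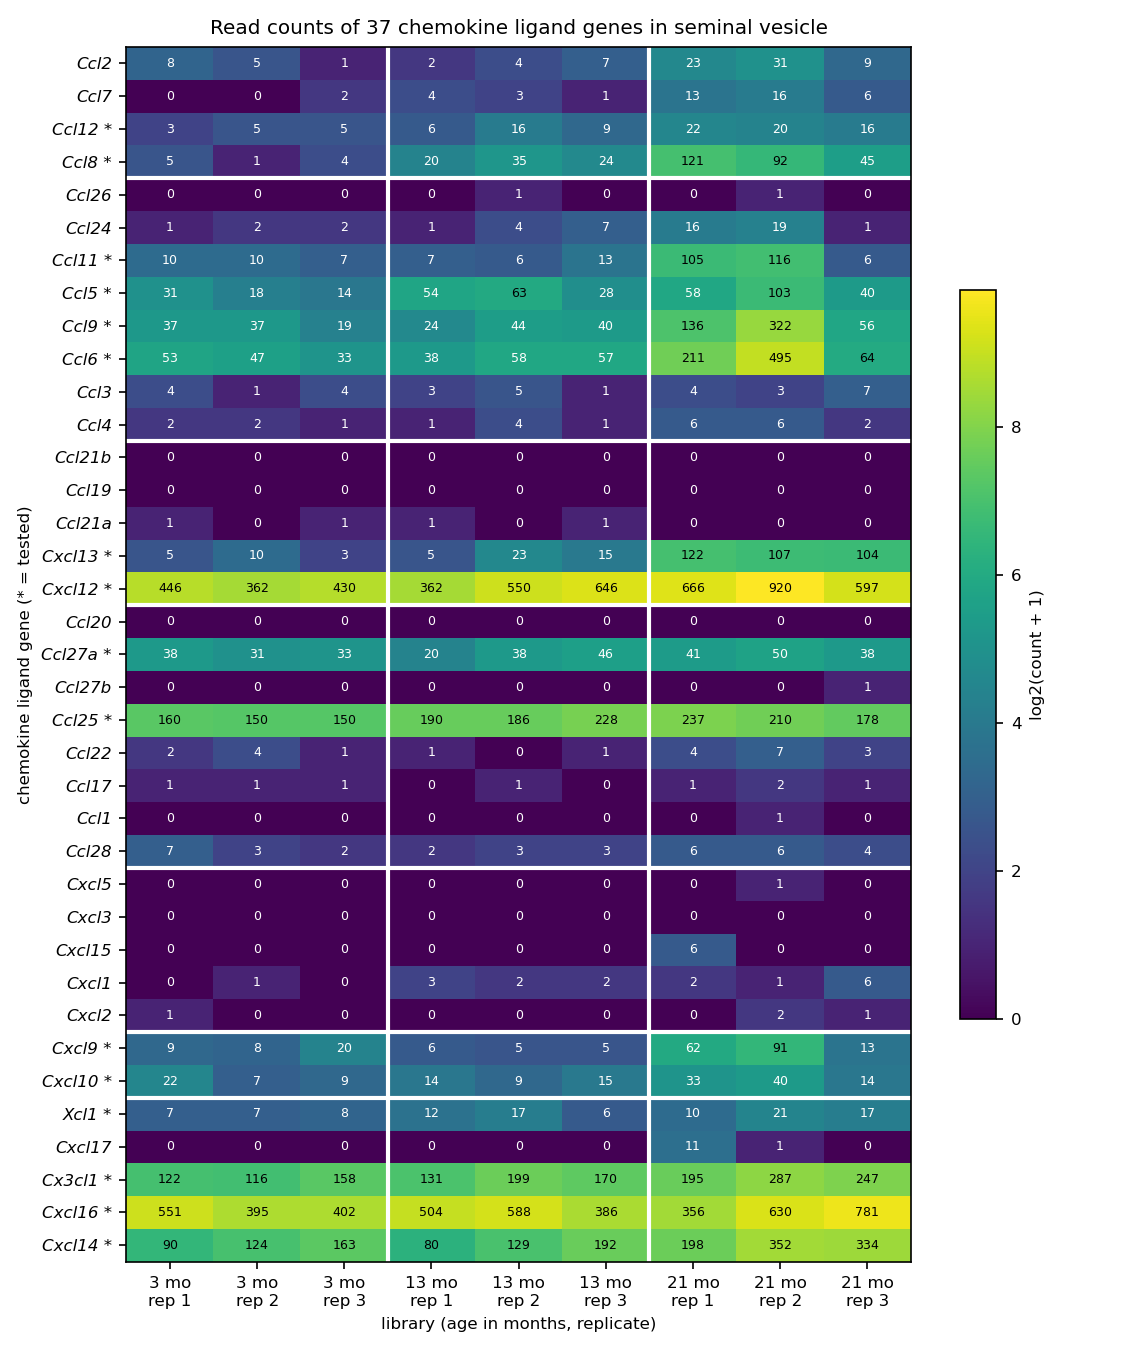
Read counts of the 37 chemokine ligand genes (rows, grouped by the receptors or sites they serve, an asterisk marking the 16 tested genes) in the 9 libraries (columns), with the count printed in each cell and colour on a log2(count + 1) scale. Cxcl12 and Cxcl16 hold 356 to 920 counts in every library, and Ccl8 goes from 1 to 5 counts at 3 months to 45 to 121 at 21 months.

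Ages were compared with edgeR's quasi-likelihood test over all 16067 genes with enough counts, adjusted by Benjamini-Hochberg, and a gene was called at an adjusted p under 0.05. Where no other tool or scaling is named, a call is that of edgeR with TMM and all 9 libraries. Of the 37 members 16 could be tested. For Ccl11, Ccl12, Cxcl9 and Xcl1 this rested on the 21-month libraries, since the 3- and 13-month libraries alone kept the other 12. Of those 12, Ccl8 was kept only through 13- or 21-month libraries, since each 3-month library held under 10 of its counts. At 21 against 3 months 2 of the 16 rose, Ccl8 and Cxcl13, and 0 fell, where 1.26% of all tested genes rose and 0.766% fell. At 13 against 3 months edgeR called 0 members in either direction, with 0.0436% of all genes called higher and 0.411% lower. At an unadjusted p under 0.05 it picked 1 member, Ccl8, as higher and 0 as lower (3.49% and 3.75% of all genes). DESeq2 called Ccl8 higher (0.38% of all genes), and limma-voom called 0. At 21 against 13 months edgeR called 0 members, with 0.00622% of all genes higher and 0.0% lower. At an unadjusted p under 0.05 it picked 7 as higher (Ccl6, Ccl8, Ccl9, Ccl11, Cxcl9, Cxcl13 and Cxcl14; 10.1% of all genes) and 1, Ccl25, as lower (5.64%). DESeq2 called Ccl6, Ccl9, Ccl11, Cxcl9 and Cxcl13 higher there (2.12% of all genes) and limma-voom called 0. The median log2 fold change of the 16 was -0.086, 0.70 and 0.63 at 13 against 3, 21 against 3 and 21 against 13 months, against 0.0078, 0.0074 and 0.0047 over all tested genes. On library totals alone edgeR called 10 of the 16 higher at 21 against 3 months, where 34.8% of all genes were higher, and 7 at 21 against 13 months (7.67%). On that scale the medians were 1.33 and 1.14 at 21 against 3 and 21 against 13 months, against 0.62 and 0.55 over all genes, with all 16 members positive where TMM gave 13. These medians are descriptions, because a gene kept only through its high libraries had to differ.

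**Figure D2:**
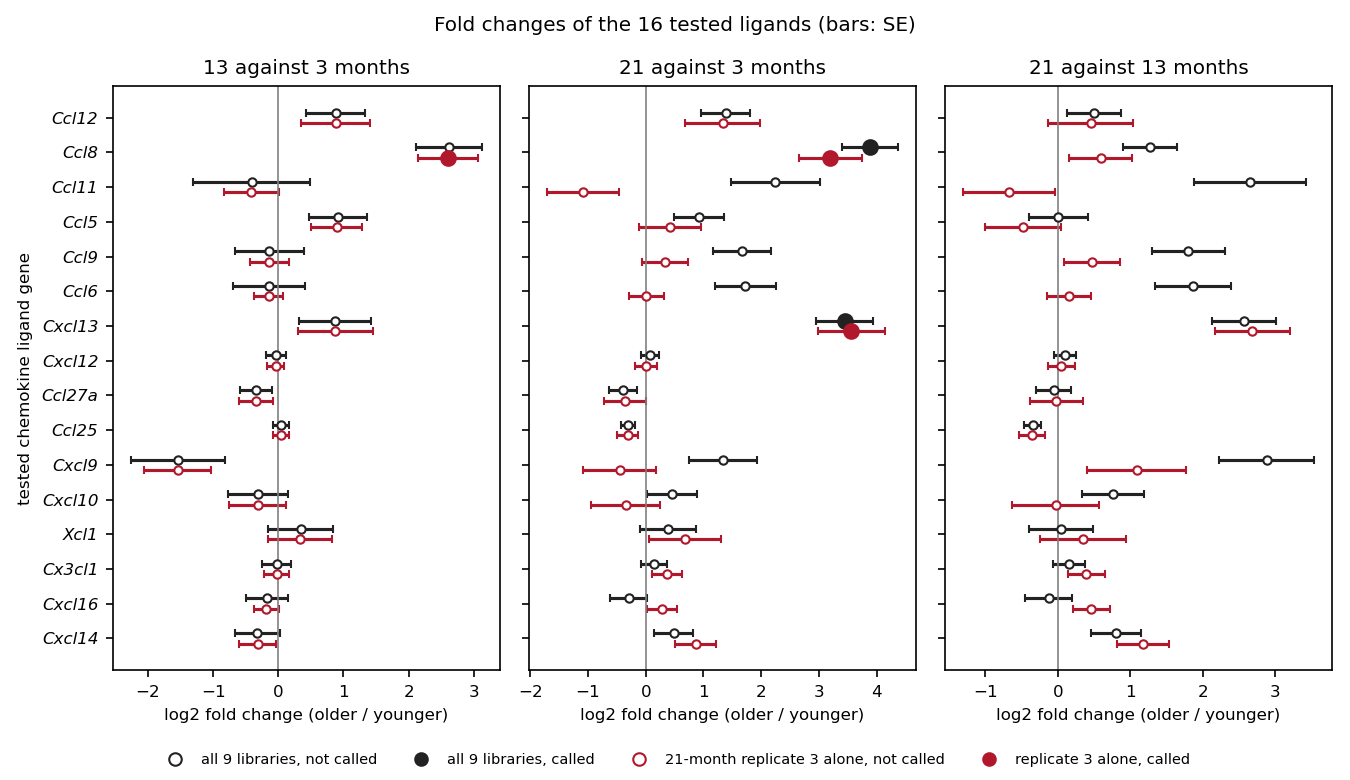
Log2 fold changes (horizontal axis, older over younger) with SE bars for the 16 tested chemokine ligand genes in the 3 comparisons, in black with all 9 libraries and in red with replicate 3 as the only 21-month library, where its spread is assumed to be that of the other ages. Filled points are called, and at 21 against 3 months Ccl8 and Cxcl13 are filled in both colours.

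The monocyte chemotactic protein genes were low in young glands, and 1 of the 2 tested, Ccl8, rose with age. Ccl8 (ENSMUSG00000009185, GRCm38 chromosome 11, 82115185 to 82116799) encodes a chemokine that in the mouse signals through CCR8. It had 5, 1 and 4 counts in the 3-month libraries, 20, 35 and 24 at 13 months, followed by 121, 92 and 45 at 21 months. Only the 13- and 21-month libraries, where it is high, carried it past the low-count filter. Its calls against 3 months therefore support nothing beyond these counts. The groups did not overlap at any age, on counts or on TMM-scaled CPM. Its level was 0.212 ± 0.122 CPM at 3 months (SD, n = 3), 1.36 ± 0.406 at 13 months, then 3.28 ± 1.23 at 21 months. By edgeR the log2 fold change was 3.89 ± 0.48 at 21 against 3 months (SE, adjusted p = 0.0153). It was 2.62 ± 0.51 at 13 against 3 months (adjusted p = 0.0758) and 1.27 ± 0.37 at 21 against 13 months (adjusted p = 0.211), neither of which passed. With 21-month replicate 3 alone the change from 3 to 21 months was 3.20 ± 0.54 (adjusted p = 0.0459), and that from 3 to 13 months was called, at 2.61 ± 0.47 (adjusted p = 0.0242). Leaving out 3-month replicate 1, 2 or 3 ended the call at 21 against 3 months, with log2 fold changes of 4.18, 3.51 and 4.08 and adjusted p of 0.111, 0.101 and 0.0901.

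Ccl8 lies in a run of CC genes on chromosome 11, in the order Ccl2, Ccl7, Ccl11, Ccl12, Ccl8 and Ccl1. Patterns of neighbouring genes were not tested against each other. Ccl12, a mouse ligand of CCR2, is 11785 bases upstream. It had 3, 5 and 5 counts at 3 months, 6, 16 and 9 at 13 months, followed by 22, 20 and 16 at 21 months. The 3- and 21-month libraries did not overlap, as for Ccl8, and edgeR did not call the difference (adjusted p = 0.0997). Ccl2, the main attractant of CCR2-bearing monocytes, had 8, 5 and 1 counts at 3 months, 2, 4 and 7 at 13 months, then 23, 31 and 9 at 21 months. Ccl7, another ligand of CCR2, had 2 counts in all at 3 months, 8 at 13 months and 35 at 21 months. Both were too sparse to test. Ccl1, a ligand of CCR8 made by activated T cells, had 1 count in all.

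At 21 against 3 months macrophage markers moved in the same direction as Ccl8. The 14 markers of macrophages and monocytes, all detected in every library, summed to 121.2 to 140.6 CPM at 3 months, 124.9 to 174.5 at 13 months, followed by 261.0, 386.8 and 216.7 in 21-month replicates 1, 2 and 3. Of the 14, 5 rose and 0 fell at 21 against 3 months, with a median log2 fold change of 1.05. Over all tested genes 1.26% rose and 0.766% fell, with a median of 0.0074. At 13 against 3 months the median of the 14 was 0.23 and edgeR called 0 of them. Of all tested genes 0.0436% rose and 0.411% fell in that comparison. The part of macrophages in the levels of Ccl8 was not tested. In bulk tissue, fewer or more cells of a type and less or more RNA per cell cannot be told apart.

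Among lymphoid tissue chemokines Cxcl13 rose at 21 against 3 months and Cxcl12 was not called by edgeR with TMM in any comparison. Cxcl13 (ENSMUSG00000023078, chromosome 5, 95956951 to 95961068) encodes the B lymphocyte chemoattractant, the ligand of CXCR5. It had 5, 10 and 3 counts at 3 months, 5, 23 and 15 at 13 months, then 122, 107 and 104 at 21 months. The 3- and 13-month libraries overlapped, and each 21-month library lay above all 6 of them. Its level was 0.402 ± 0.270 CPM at 3 months, 0.722 ± 0.454 at 13 months, followed by 4.37 ± 0.455 at 21 months (SD, n = 3). The log2 fold change was 3.45 ± 0.49 at 21 against 3 months (SE, edgeR adjusted p = 0.0202). It was 2.57 ± 0.44 at 21 against 13 months (adjusted p = 0.196) and 0.87 ± 0.55 at 13 against 3 months (adjusted p = 0.813). With 21-month replicate 3 alone the change from 3 months was 3.56 ± 0.58 (adjusted p = 0.0391). Leaving out 3-month replicate 1, 2 or 3 ended the call, at 3.23, 4.08 and 3.14 with adjusted p of 0.163, 0.0896 and 0.108.

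The level of Cxcl13 in 21-month replicate 3 was as high as in the others, at 4.72 CPM against 4.53 and 3.86 in replicates 1 and 2. The summed level of 8 B cell markers differed among the same libraries, at 25.7, 7.64 and 2.50 CPM in replicates 1, 2 and 3, against 0.627 to 3.11 at 3 and 13 months. Cr2 alone held 46, 24 and 11 of the 54, 27 and 17 marker counts at 3 months. In 21-month replicate 3 it held 18 of 55. The sum at 3 months is thus mostly Cr2, and its overlap with replicate 3 does not hold for the other markers taken without Cr2. Of the 8 markers, 3 could be tested and 1, Cd22, rose at 21 against 3 months, where 1.26% of all tested genes rose. Cd22 had 0, 1 and 3 counts at 3 months, 3, 8 and 3 at 13 months, then 106, 55 and 12 at 21 months. It passed the low-count filter only through the 21-month libraries, so that this call supports nothing beyond its counts. Ms4a1, the gene of CD20, was at 0 in all 3 libraries of 3 months. Cxcr5, the receptor of Cxcl13 on B cells, had 1 count at 3 months, 1 at 13 months, then 26, 8 and 2 in 21-month replicates 1, 2 and 3. The 8 plasma cell markers summed to 807.3, 597.4 and 496.7 CPM in 21-month replicates 1, 2 and 3, against 191.0 to 286.9 at 3 and 13 months. Of these, 6 could be tested and 4, the immunoglobulin genes Ighm, Igha and Igkc and the joining chain gene Jchain, rose at 21 against 3 months (1.26% of all tested genes). The median log2 fold change over the 6 was 5.36. The other tested markers, Xbp1 and Sdc1, stood at -0.29 and -0.034 and were not called (edgeR adjusted p = 0.283 and 0.916). Xbp1 alone held a mean of 203.8, 188.4 and 166.1 CPM at 3, 13 and 21 months. This was most of the sum in the younger libraries, so that the sum is no measure of plasma cells alone. The part of B cells or plasma cells in the level of Cxcl13 was not tested.

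Cxcl12, which retains leukocytes and progenitors through CXCR4, was the best counted of the lymphoid group. Its level was 25.7, 25.7 and 29.7 CPM in the 3-month libraries, 21.4, 28.7 and 28.9 at 13 months, followed by 24.7, 33.2 and 27.1 at 21 months. The 3 ages overlapped, with adjusted p of 0.981, 0.808 and 0.771 at 13 against 3, 21 against 3 and 21 against 13 months. On library totals alone the mean at 21 months was 36.5 CPM against 23.3 at 3 months, and on that scale it was called higher at 21 against 3 months, so that the size of this difference rests on the scaling. Ccl21a, a ligand of CCR7 made by lymphatic endothelium, had 4 counts over the 9 libraries, and Ccl19 and Ccl21b had 0. These 3 genes cannot be judged from such counts, since 52.0% of the 50-base words of Ccl19 transcripts, 71.6% of those of Ccl21a and all of those of Ccl21b occur in another annotated gene. How reads that map to several places were counted is not given in the sources used here.

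**Figure D3:**
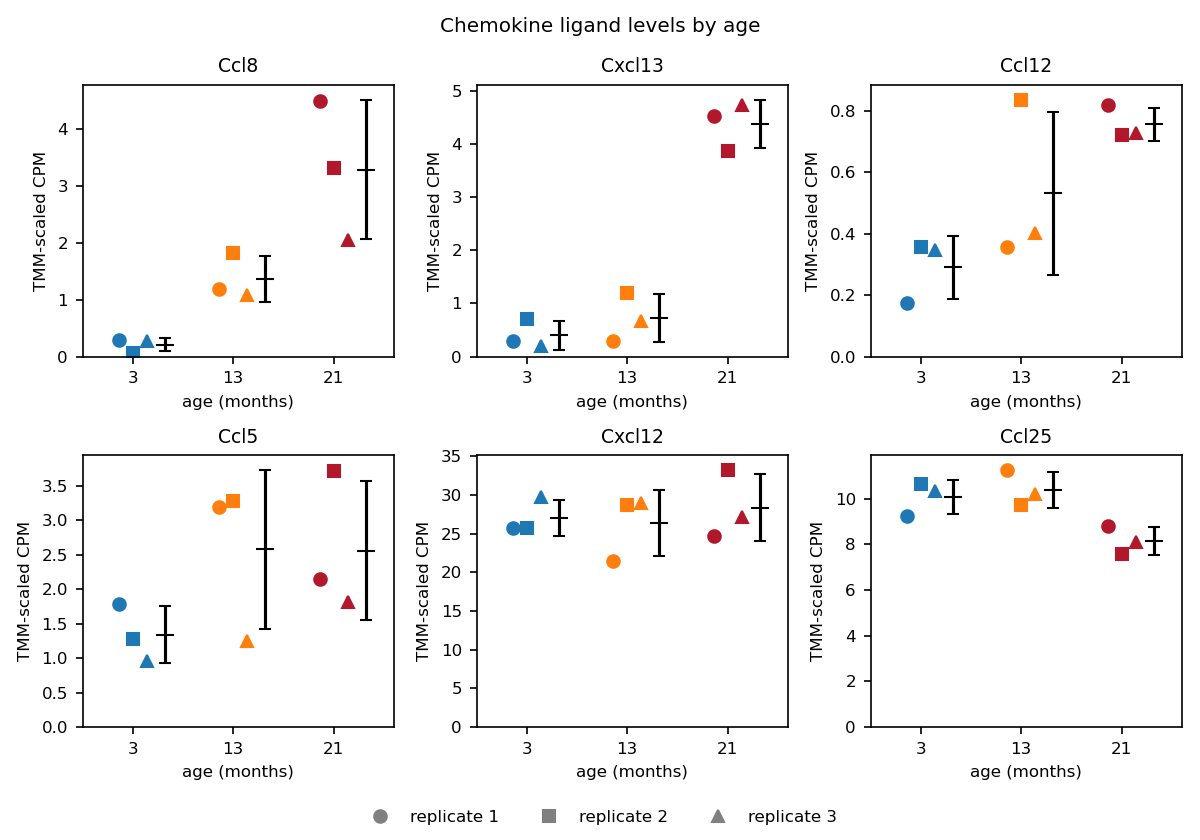
TMM-scaled CPM (vertical axes) of 6 chemokine ligands by age in months (horizontal axes), with 1 symbol per replicate and the mean ± SD of 3 libraries beside it. Ccl8 and Cxcl13 are highest at 21 months in all 3 libraries, Cxcl12 overlaps at all ages, and Ccl25 at 21 months lies below the younger libraries on this scale.

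Ccl6, Ccl9, Ccl11 and Ccl24, ligands of CCR1 or CCR3, were high in 21-month replicates 1 and 2 and near the younger levels in replicate 3. Ccl6, a rodent chemokine of myeloid cells that binds CCR1, stood at 3.05, 3.34 and 2.28 CPM at 3 months, 2.25, 3.03 and 2.55 at 13 months, then 7.84, 17.8 and 2.91 in 21-month replicates 1, 2 and 3. Ccl9, its neighbour on chromosome 11 and another rodent ligand of CCR1, stood at 2.13, 2.63 and 1.31 CPM at 3 months, 1.42, 2.30 and 1.79 at 13 months, followed by 5.05, 11.6 and 2.54 at 21 months. EdgeR and limma-voom called neither, and DESeq2 called both higher at 21 months against each younger age. The 3- and 21-month libraries of both overlapped, while those of Ccl9 at 13 and 21 months did not. For Ccl9 the log2 fold change was 1.66 ± 0.51 at 21 against 3 months (SE, edgeR adjusted p = 0.0982) and 1.80 ± 0.50 at 21 against 13 months (adjusted p = 0.206). With replicate 3 alone these were 0.33 ± 0.40 (adjusted p = 0.809) and 0.47 ± 0.39 (adjusted p = 0.999).

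Eotaxins draw eosinophils through CCR3. Ccl11, eotaxin 1, had 10, 10 and 7 counts at 3 months, 7, 6 and 13 at 13 months, then 105, 116 and 6 in 21-month replicates 1, 2 and 3. Replicate 3, at 0.272 CPM, was the lowest of the 9 libraries. The edgeR adjusted p was 0.124 at 21 against 3 months. Ccl24, eotaxin 2, had 5 counts in all at 3 months, 12 at 13 months, followed by 16, 19 and 1 in 21-month replicates 1, 2 and 3. Ccl26, eotaxin 3, had 1 count in 13-month replicate 2 and 1 in 21-month replicate 2, too few to show any split. Their receptor gene Ccr3 had 2 and 5 counts in 21-month replicates 1 and 2 and 0 in each other library.

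Without 21-month replicate 3, edgeR called 8 of 19 tested members higher at 21 against 3 months (Ccl6, Ccl7, Ccl8, Ccl9, Ccl11, Ccl24, Cxcl9 and Cxcl13), where 8.41% of all genes were higher. It called 6 of 19 higher at 21 against 13 months (Ccl6, Ccl8, Ccl9, Ccl11, Cxcl9 and Cxcl13; 4.83% of all genes). Of these genes Ccl7 and Ccl24 passed the low-count filter only because a group then held 2 libraries, and Ccl11 and Cxcl9 passed it only with 21-month libraries, so that their calls support nothing beyond their counts. Ccl8 passed the filter only with 13- or 21-month libraries, so that its call against 3 months likewise supports nothing beyond its counts. With replicate 3 as the only 21-month library it called Ccl8 and Cxcl13 at 21 against 3 months (0.23% of all genes higher) and Ccl8 at 13 against 3 months (0.363%). DESeq2 on all 9 libraries called Ccl6, Ccl8, Ccl9, Ccl11 and Cxcl13 higher at 21 against 3 months (6.0% of all genes). Adipocyte markers moved with the split: all 8 were detected in replicates 1 and 2, while Adipoq, Plin1, Cidec, Lep and Retn were at 0 in replicate 3. All 8 were also detected in 3-month replicate 2, at a sum of 26.7 CPM, where Ccl11 stood at 0.71 CPM. In 21-month replicates 1 and 2 the adipocyte sum was 266.4 and 2300.0 CPM, and Ccl11 stood at 3.90 and 4.18. Nerve and Schwann cell markers summed to 6.87, 25.7 and 1.91 CPM in 21-month replicates 1, 2 and 3. The prostate genes Tgm4 and Pbsn were high in replicate 1 only, where Ccl11 was as high as in replicate 2. The part of fat, prostate, nerve or macrophages in these levels was not tested.

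**Figure D4:**
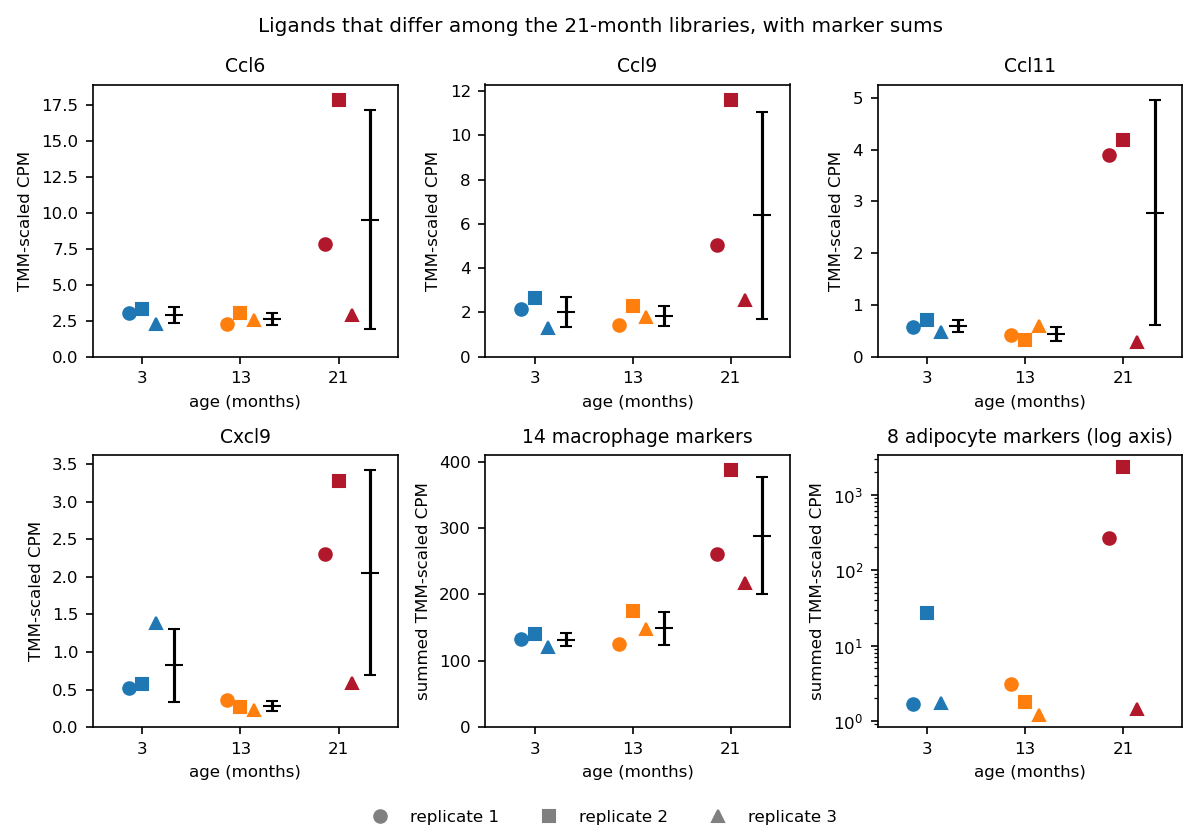
TMM-scaled CPM (vertical axes) of Ccl6, Ccl9, Ccl11 and Cxcl9 by age in months, beside the summed level of 14 macrophage markers and, on a log axis, of 8 adipocyte markers; symbols are replicates, and black marks give the mean ± SD of 3 libraries except on the log axis. Ccl11 stands at 3.90 and 4.18 CPM in 21-month replicates 1 and 2 and at 0.272 in replicate 3, and the adipocyte sum at 266.4, 2300.0 and 1.45.

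Ccl5 gave no call by edgeR with TMM, and Ccl3 and Ccl4 were too sparse to test. Ccl5, made by T and NK cells, stood at 1.79, 1.28 and 0.966 CPM at 3 months, 3.19, 3.29 and 1.25 at 13 months, then 2.15, 3.71 and 1.82 at 21 months. Each 21-month library lay above each 3-month library, while 13-month replicate 3 lay among the 3-month ones. The log2 fold change was 0.92 ± 0.44 at 13 against 3 months (SE, edgeR adjusted p = 0.716), and the adjusted p was 0.225 at 21 against 3 months. The 14 T and NK cell markers summed to 4.90 to 8.90 CPM at 3 months, 10.5 to 22.4 at 13 months, followed by 17.5 to 25.6 at 21 months. At 21 against 3 months 3 of 13 tested markers, Cd2, Cd3e and Cd3g, were called higher, against 1.26% of all tested genes. Cd2 and Cd3e passed the low-count filter only with the 21-month libraries, so that their calls support nothing beyond their counts. The part of T and NK cells in the level of Ccl5 was not tested. Ccl3 and Ccl4, made by activated macrophages and lymphocytes, had 1 to 7 counts in each library.

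The interferon-inducible ligands of CXCR3, Cxcl9 and Cxcl10, were not called by edgeR in any comparison, while DESeq2 called Cxcl9 higher at 21 against 13 months. Cxcl9 passed the low-count filter only through the 21-month libraries, so that this call supports nothing beyond its counts. Cxcl9 had 9, 8 and 20 counts at 3 months, 6, 5 and 5 at 13 months, then 62, 91 and 13 in 21-month replicates 1, 2 and 3. The 13-month libraries lay below all others on the CPM scale, and 21-month replicate 3 fell within the range of 3 months. Its log2 fold change was -1.54 ± 0.73 at 13 against 3 months (SE, edgeR adjusted p = 0.709) and 2.88 ± 0.66 at 21 against 13 months (adjusted p = 0.196), or 1.09 ± 0.68 (adjusted p = 0.999) with replicate 3 alone. Cxcl10 had 22, 7 and 9 counts at 3 months, 14, 9 and 15 at 13 months, followed by 33, 40 and 14 at 21 months, and its groups overlapped in every comparison. Art3, on the opposite strand, shares 133 of the 2252 exon bases of Cxcl10, and whether strand was used in counting is not given. Ifng, whose product induces both ligands, had 3 counts in 21-month replicate 2, 1 in replicate 3 and 0 in the other 7 libraries.

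The neutrophil attractants that act through CXCR2 had few counts. Cxcl1 had 0 to 6 counts per library, Cxcl2 4 counts in all, Cxcl5 1 and Cxcl3 0. Their receptor gene Cxcr2 had 1 count in each 21-month library and 0 in the others, and Cxcr1 had 0 in all 9. Cxcl15, a chemokine first known from mouse lung, had 6 counts, all in 21-month replicate 1. Cxcl17, a mucosal chemokine, had 11 counts in that library, 1 in replicate 2 and 0 elsewhere. The library with these counts is the one with the high Tgm4 and Pbsn, and the part of prostate tissue in them was not tested.

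Chemokines of barrier tissues were led by Ccl25, known from thymus and small intestine, where it guides CCR9-bearing lymphocytes. Ccl25 stood at 9.21, 10.6 and 10.4 CPM at 3 months, 11.2, 9.70 and 10.2 at 13 months, then 8.80, 7.57 and 8.08 at 21 months. All 3 libraries of 21 months lay below all younger ones, without a call (edgeR adjusted p = 0.173 against 3 months and 0.254 against 13 months). On library totals alone the means were 8.68, 9.31 and 10.6 CPM at 3, 13 and 21 months, so that the direction turns with the scaling. Its exons share 204 of 7445 bases with Elavl1 on the opposite strand. Ccl27a, a skin chemokine and ligand of CCR10, stood at 2.22 ± 0.0483 CPM at 3 months, 1.74 ± 0.485 at 13 months, followed by 1.68 ± 0.144 at 21 months (SD, n = 3) and was not called by edgeR (adjusted p = 0.341 at 21 against 3 months). On library totals alone its means were 1.92, 1.59 and 2.16 CPM, so that its direction from 3 to 21 months turns with the scaling as well. Of its 50-base words 45.0% occur in another gene, so that its counts are uncertain. Ccl28 had 2 to 7 counts per library, Ccl22 and Ccl17, the ligands of CCR4, had 23 and 8 counts in all, Ccl27b had 1 and Ccl20, the ligand of CCR6, had 0. Of the 50-base words of Ccl27b 98.1% occur in another gene, so that Ccl27b cannot be judged from its count.

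Cxcl16, Cx3cl1, Cxcl14 and Xcl1 gave no call by edgeR in any comparison with TMM, and on library totals alone Cxcl14 was called higher at 21 months against each younger age. Cxcl16 stood at 31.7, 28.0 and 27.7 CPM at 3 months, 29.8, 30.7 and 17.3 at 13 months, then 13.2, 22.7 and 35.5 at 21 months. The spread at 21 months, an SD of 11.2 CPM, was wider than the 2.23 at 3 months, with replicate 1 lowest and replicate 3 highest of all libraries. On library totals alone 13-month replicate 3 was lowest, at 15.6 CPM, with 21-month replicate 1 at 20.8. The lowest place of 21-month replicate 1 thus rests on the scaling. Zmynd15, on the opposite strand, shares 552 of the 3021 exon bases of Cxcl16. Cx3cl1, an adhesive membrane-bound chemokine, stood at 7.03 to 10.9 CPM at 3 months, 7.61 to 10.4 at 13 months, followed by 7.24 to 11.2 at 21 months, and its ages overlapped. Cxcl14 stood at 5.18, 8.80 and 11.3 CPM at 3 months, 4.73, 6.73 and 8.59 at 13 months, then 7.35, 12.7 and 15.2 at 21 months, with an adjusted p of 0.406 at 21 against 3 months. Xcl1, the lymphotactin of T and NK cells, had 6 to 21 counts per library. Gm20743, a transcript on the opposite strand, shares 98 of its 523 exon bases.

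The receptors were read out in the same libraries. Of 18 chemokine receptor genes 8 could be tested, and at 21 against 3 months 1 rose and 0 fell, where 1.26% of all tested genes rose and 0.766% fell. The median log2 fold change of the 8 was 1.01, against 0.0074 over all genes. At 13 against 3 and at 21 against 13 months edgeR called 0 of 8. Cxcr3, the receptor of Cxcl9 and Cxcl10 on activated T cells, was the gene called. It passed the low-count filter only with the 21-month libraries, so that its call supports nothing beyond its counts. It had 4, 2 and 4 counts at 3 months, 20, 32 and 12 at 13 months, followed by 30, 55 and 20 at 21 months, so that each 13- and 21-month library lay above all 3-month ones. Its log2 fold change was 2.59 ± 0.56 at 21 against 3 months (SE, edgeR adjusted p = 0.0497) and 2.33 ± 0.57 at 13 against 3 months (adjusted p = 0.194). The call ended with limma-voom (adjusted p = 0.087), with only the 6 libraries compared (0.0605), without any 1 library of 3 months (0.152 to 0.217), without 13-month replicate 1 (0.0711) or 2 (0.0699), without 21-month replicate 2 (0.113) and where replicate 3 stood alone for 21 months, at 2.03 ± 0.70 (adjusted p = 0.319).

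Of the other 7 tested receptors edgeR called 0, while DESeq2 also called Ccr2 and Cxcr6 higher at 21 against 3 months. Cxcr6, the receptor of Cxcl16, had 18, 11 and 8 counts at 3 months, 31, 59 and 29 at 13 months, then 59, 73 and 40 at 21 months (adjusted p = 0.0702 at 21 against 3 months). Ccr2, the receptor of Ccl2, Ccl7 and Ccl12, had 116, 75 and 86 counts at 3 months, 118, 187 and 123 at 13 months, followed by 252, 515 and 228 at 21 months (adjusted p = 0.0736). Cx3cr1, the receptor of Cx3cl1, had 21 to 38 counts at 3 months, 47 to 79 at 13 months, then 58 to 184 at 21 months (adjusted p = 0.127). Ccr8, the mouse receptor of Ccl8, had 1 count over the 9 libraries. Ccr1, the receptor of Ccl6 and Ccl9, had 22, 34 and 1 counts in 21-month replicates 1, 2 and 3 and 4 to 10 in each younger library. Ccr6 had 13, 2 and 2 counts at 21 months and 0 in all younger libraries. Cxcr4, the signalling receptor of Cxcl12, had 84 to 191 counts per library and an adjusted p of 0.615 at 21 against 3 months.

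**Figure D5:**
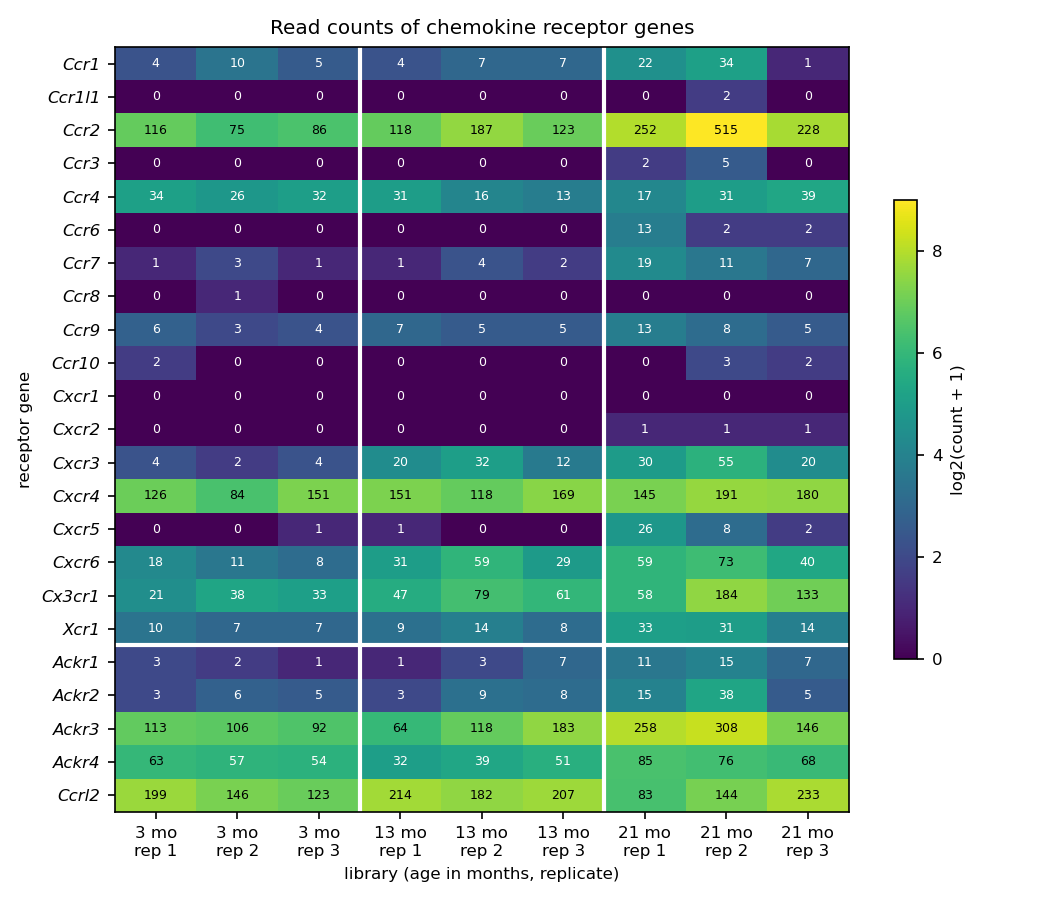
Read counts of 18 chemokine receptor genes and, below the white line, 5 atypical receptor genes in the 9 libraries, with the count in each cell and colour on a log2(count + 1) scale. Cxcr3 goes from 2 to 4 counts at 3 months to 12 to 55 at later ages, Ccr2 is the receptor with the most counts in any library at 515, and Ccr8 has 1 count in all.

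Of the 5 atypical receptor genes, whose products scavenge or present ligands, 3 could be tested and 0 were called in any comparison by edgeR. Ackr4, which clears Ccl19, Ccl21 and Ccl25, had 63, 57 and 54 counts at 3 months, 32, 39 and 51 at 13 months, followed by 85, 76 and 68 at 21 months (adjusted p = 0.0972 at 13 against 3 months). Ackr3, the scavenger of Cxcl12, had 92 to 113 counts at 3 months, 64 to 183 at 13 months, then 146 to 308 at 21 months (adjusted p = 0.365 at 21 against 3 months).

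Downstream of the receptors, 3 of 16 signalling genes rose and 0 fell at 21 against 3 months, with a median of 0.39. Over all tested genes 1.26% rose and 0.766% fell there, with a median of 0.0074. In the other comparisons edgeR called 0 of the 16. Dock2, the leukocyte exchange factor that drives migration toward chemokines, had 116, 88 and 85 counts at 3 months and 482, 642 and 271 at 21 months (log2 fold change 1.51 ± 0.23, SE, edgeR adjusted p = 0.0265). Pik3r5, a regulatory subunit of phosphoinositide 3-kinase gamma, rose by 2.20 ± 0.36 (adjusted p = 0.0274). Rac2, a small GTPase of leukocytes, rose by 1.64 ± 0.35 (adjusted p = 0.0497). With 21-month replicate 3 alone the 3 calls ended, at 0.97 (adjusted p = 0.112), 1.49 (0.189) and 1.38 (0.282). Without any 1 library of 3 months they ended too, with adjusted p from 0.108 to 0.217. Leaving out 21-month replicate 2 ended each as well (0.0501, 0.064 and 0.113). The call of Pik3r5 also ended with only the 6 libraries compared (0.0581), and that of Rac2 with limma-voom (0.0712), with a minimum of 10 counts in every library (0.0637), without 13-month replicate 1 (0.07) and without 21-month replicate 1 (0.0517). The part of leukocyte content in the levels of these genes was not tested.

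Among 18 genes for cytokines and transcription factors that switch chemokine genes on or off, 13 were tested. Their median at 21 against 3 months was 0.47, against 0.0074 over all tested genes. Over all tested genes 1.26% rose there and 0.766% fell, and of the 13 genes 0 fell and 1 rose. This was Tnfaip3, a feedback inhibitor of NF-kB, with 61, 46 and 71 counts at 3 months and 219, 213 and 142 at 21 months (log2 fold change 0.93 ± 0.20, SE, edgeR adjusted p = 0.0484). Limma-voom, the replicate block, a minimum of 10 counts in every library and a fit of the 6 libraries alone each ended its call (adjusted p = 0.0576 to 0.0914). It also ended without any 1 library except 21-month replicate 3 (0.0597 to 0.217) and with 21-month replicate 3 alone, at 0.73 (adjusted p = 0.343). Tnf had 2, 3 and 1 counts at 3 months, 6, 10 and 4 at 13 months, followed by 20, 12 and 5 at 21 months (adjusted p = 0.135 at 21 against 3 months). Il6 had 1 count and Il17a 0 over the 9 libraries.

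Genes just outside the symbol rule were read as well. Pf4, platelet factor 4, had 13 to 19 counts at 3 months, 17 to 22 at 13 months, then 62, 88 and 22 in 21-month replicates 1, 2 and 3, with replicate 3 at the upper end of 13 months (adjusted p = 0.133 at 21 against 3 months). Ppbp, the other platelet CXC gene, had 0 counts at 3 months, 5 over the 13-month libraries and 8, 17 and 7 at 21 months. Cxcl11, annotated as a polymorphic pseudogene and so no member, had 4 counts in all.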

How the data were processed

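RNA of 9 seminal vesicle libraries was sequenced, 3 at each of 3 ages. The authors deposited raw read counts per Ensembl gene, made with HISAT2 and featureCounts on GRCm38 (mm10), per the submitters' processing notes, with no normalization. Versions, annotation, strand setting and the treatment of multi-mapping reads are not given in the sources used here. Columns were matched to libraries by name. Symbols, coordinates and exon lengths came from GENCODE M21, where 53274 of 53379 identifiers matched, and the other 105 held 0.00839% of counts.

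Low-count genes were removed by filterByExpr in edgeR 4.0.16 (minimum count 10, minimum total 15), and the rest scaled by TMM and fitted with 1 coefficient per age over 9 libraries in R 4.3.3 (residual degrees of freedom 6, biological coefficient of variation 22.4%). SE is the absolute log2 fold change over the square root of F. The steps were tested on simulated data. Alternatives were DESeq2 1.42.0, limma-voom (limma 3.58.1), other scalings and filters, only the 6 libraries compared, a replicate block, each library left out and 21-month replicate 3 alone. Shared sequence was counted as 50-base words of GENCODE transcripts. Promoters came from RefSeq.

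The members, the lists and the alternatives were chosen with earlier results of these data known. Fold changes are printed for called members and for the 3 members of smallest p in each comparison, and for up to 4 called genes of each receptor or pathway list. Protein sequences were not used here, and a listed receptor was left out and is not reported here. Precision is set by depth: 3 counts are 0.121 to 0.1814 CPM, which covers counting error only.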

Additional observations from a re-analysis of the deposited data

How the results depend on the processing

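The counts of called ligands moved with the setting. At 13 against 3 months 1 ligand, Ccl8, was called instead of 0 with DESeq2, with no low-count filter, with only the 6 libraries compared and with 21-month replicate 3 alone, and leaving out 1 library gave 0 to 1 (1 without 21-month replicate 1). At 21 against 3 months, where 2 were called, DESeq2 called 5, library totals alone 10 and the filter of at least 10 counts in all 9 libraries, which keeps 9 members and removes Ccl8 and Cxcl13, 0; leaving out 1 library gave 0 to 8 (0 without any library of 3 months, 8 without 21-month replicate 3). At 21 against 13 months DESeq2 called 5 and library totals alone 7, and leaving out 1 library gave 0 to 6. Over all tested genes DESeq2 called 6.0% higher at 21 against 3 months and 2.12% at 21 against 13 months. Library totals alone called 34.8% and 7.67% higher in these comparisons, and edgeR without 21-month replicate 3 called 8.41% and 4.83%. For receptors at 21 against 3 months, where 1 was called, DESeq2 called 3, library totals alone 5, no low-count filter 2, and limma-voom, at least 10 counts in all 9 libraries, only the 6 libraries compared and 21-month replicate 3 alone 0, with 0 to 4 when 1 library was left out. DESeq2 called 1 receptor at 13 against 3 months, and library totals alone 1 at 21 against 13 months.

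Replicate numbers share only a name: 3 of 9 same-numbered pairs had deviations from the age means correlated above 0.1 (range -0.17 to 0.208), and 7 of 18 best matches fell on the library's own number. With a replicate block the ligand counts were 0, 2 and 0 and the receptor count at 21 against 3 months was 2. None of the fold changes printed with an SE with all 9 libraries reversed under the alternatives run. Of the 16 tested members, which are all plotted, 4 (Ccl11, Cxcl9, Cxcl10 and Cxcl16) changed direction at 21 against 3 months with 21-month replicate 3 alone and 3 (Ccl25, Ccl27a and Cxcl16) on library totals, without a call under TMM. Ccl8 at 21 against 3 months ran from 3.20 to 4.57 over 17 alternatives and Cxcl13 from 3.14 to 4.08. Scaling by library totals moved the median of all genes from 0.0074 to 0.62 at 21 against 3 months, and moved 11 of 48 mean levels by over 1 SD, an alternative chosen after seeing the data. The cause of these moves was not tested. Depth limits the 21 members that could not be tested.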
